A study of Homo sapiens with 3 samples.

Results

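The genes described here are 33 targets of the transcription factor p53 and genes of growth arrest, chosen by name. They were measured in HaCaT cells, a spontaneously immortalised line of human epidermal keratinocytes. All 33 were on the arrays, as 84 transcripts, among 23595 genes and 42947 transcripts with a gene name. RNA was hybridised to 3 single-colour NimbleGen arrays labelled with Cy3, with 1 array for each group. The Control cells were left without treatment. The ATRA cells received all-trans retinoic acid, the active form of vitamin A, at 1 µM, and the ATRA+NIC cells received all-trans retinoic acid together with NIC, which the series' title spells out as nicotinamide. Incubation lasted 36 h, the sources used here do not give the dose of NIC, and no array held cells given NIC alone. HaCaT is a single immortalised line, which limits it as a model of normal epidermis.

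In cells with a working p53, DNA damage and other stress stabilise the protein, which binds paired half-sites in DNA and switches on genes that stop the cell cycle, repair DNA or bring about cell death. MDM2, itself a target, marks p53 for degradation and closes a feedback loop. Many of these targets also answer to other inputs, among them stress-activated kinases, the integrated stress response and differentiation signals, so their transcripts can move without p53. In epidermis, arrest genes such as CDKN1A and SFN are also known for their part in the exit of keratinocytes from the cell cycle.

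The ATRA array held the highest level of 17 of the 33 genes (51.5%), against 33.5% of all measured genes. These included the cell cycle inhibitor CDKN1A, the stress genes GADD45A and GADD45B, the kinase PLK3, the antiproliferative genes BTG1 and BTG2, the stress-responsive SESN2 and the death receptor TNFRSF10B. On the ATRA+NIC array these genes lay near or below their level on the Control array. MDM2, the feedback gene of p53, did not share this pattern, and neither did the targets FAS, FDXR, DDB2, TP53I3, ZMAT3 and SESN1. Other targets, among them PLK2, XPC, TNFRSF10A and PPM1D, were highest on the ATRA array but under 2-fold.

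The level of a gene is the mean of the log2 intensities of its transcripts, and a log2 difference of 1 is a 2-fold difference. Against the Control array, 10 of the 33 genes (30.3%) were at least 2-fold higher on the ATRA array, where 4.23% of all measured genes were, and 0 were at least 2-fold lower, against 3.22%. On the ATRA+NIC array 9 of the 33 (27.3%) were at least 2-fold lower than on the ATRA array, where 4.12% of all genes were, and 0 were at least 2-fold higher, against 3.09%. Between the ATRA+NIC and Control arrays 1 gene was at least 2-fold higher, against 2.32% of all genes, and 0 were at least 2-fold lower, against 2.08%. The median log2 difference of the 33 genes was 0.28 for ATRA minus Control, −0.14 for ATRA+NIC minus ATRA and −0.10 for ATRA+NIC minus Control, beside −0.03, 0.04 and 0.00 over all genes. The comparisons share arrays, so a gene that was high on the ATRA array alone appears in both comparisons with that array, and the second count is not separate evidence for the first. A group of 1 array allows no test, so no difference here has an error between cultures. In RNA of whole cultures, fewer cells of a type and less RNA per cell cannot be told apart.

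Dim genes scatter more on an array, so the counts were also taken over the 11798 genes whose mean level over the 3 arrays was at or above the median of all levels, a log2 level of 7.95. Of the 33 genes, 29 were in this set, and MDM2, GADD45G, TP53INP1 and RRM2B were not. The same number as before, 10, was at least 2-fold higher on the ATRA than on the Control array, where 3.09% of this set were, with 0 lower against 1.63%. For ATRA+NIC against ATRA the numbers were 9 lower, against 2.98%, and 0 higher, against 1.06%. For ATRA+NIC against Control they were 1 higher, against 0.797%, and 0 lower, against 0.746%.

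**Figure D1:**
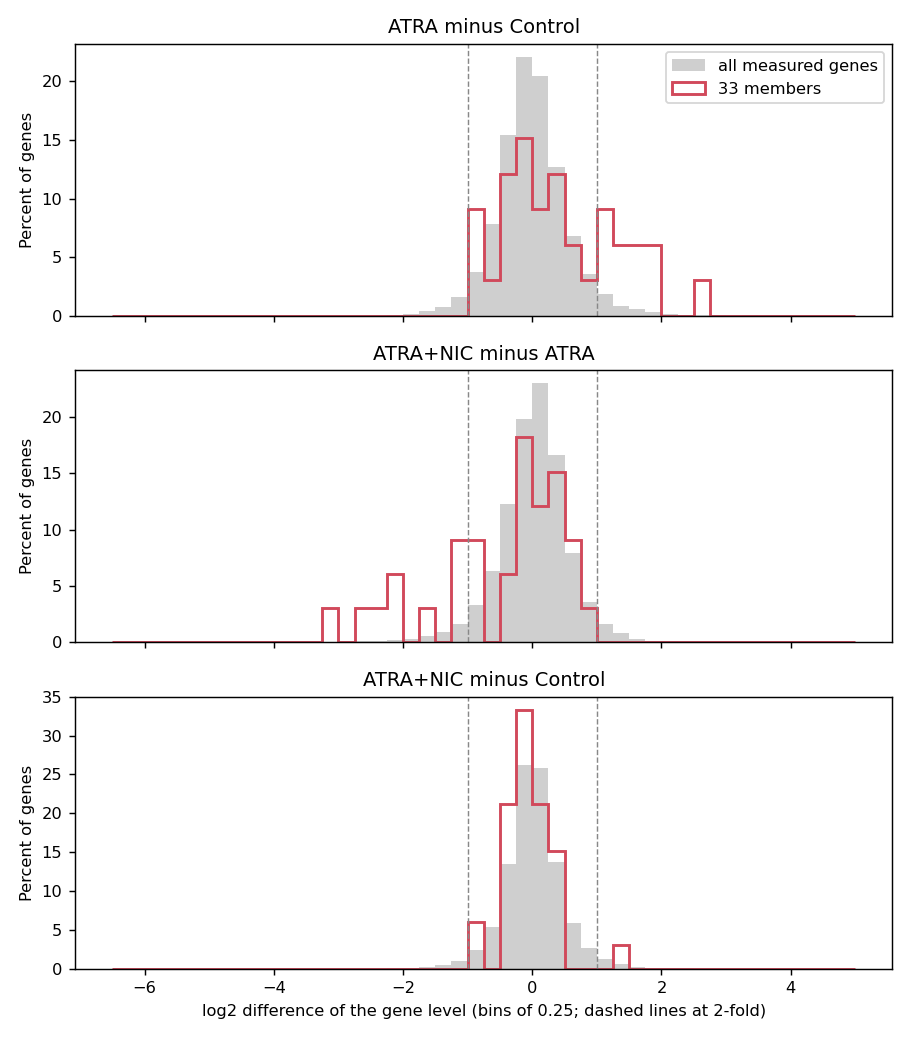
Distribution of the log2 difference of gene levels in each comparison, in percent of genes per bin, for all 23595 measured genes (grey) and the 33 p53 target and growth arrest genes (red outline). In the upper panel 10 of the 33 lie right of the upper 2-fold line, in the middle panel 9 lie left of the lower line, and in the bottom panel 1 lies outside the lines.

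The 3 genes that restrain p53 differed little between arrays. MDM2, which encodes the ubiquitin ligase of p53, had log2 levels of 7.76 on the Control, 7.71 on the ATRA and 7.51 on the ATRA+NIC array. Its 13 transcripts, which lie on chromosome 12 between 67488246 and 67520481 in the hg18 build used by the files, did not point one way. For ATRA minus Control 6 were higher and 7 lower, over a range of −1.09 to 0.60. For ATRA+NIC minus ATRA 3 were higher and 10 lower, over a range of −0.63 to 0.38, and the sign of the gene's difference turned to 0.25 when the median of transcripts replaced the mean. MDM4, a relative of MDM2 that also holds p53 in check, stood at 8.24, 8.27 and 8.11, and its 6 transcripts were split, 3 higher and 3 lower, on the ATRA array. Of the 3 higher, 1 had intensities of only 14.0, 15.5 and 21.0 on Control, ATRA and ATRA+NIC. That is near the level of random probes that match no human transcript, so its sign means little, and it lowered the gene level. PPM1D, the phosphatase that ends p53 signalling, stood at 10.72, 11.16 and 10.85, and both of its transcripts were higher on the ATRA than on the Control array, by 0.28 and 0.60. None of the 3 reached 2-fold in any of the 3 comparisons.

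Of the 11 genes of arrest and growth control, 7 were at least 2-fold higher on the ATRA than on the Control array. Over all measured genes this share was 4.23%. The same 7 were at least 2-fold lower on the ATRA+NIC than on the ATRA array, against 4.12% of all genes. Both comparisons share the ATRA array, so the second count is not separate evidence for the first. The median log2 differences of the 11 were 1.15 and −1.18. Against Control, the ATRA+NIC array had 0 of the 11 past 2-fold in either direction. By any amount, 3 were higher (27.3%, against 50.4% of all genes) and 8 lower, with a median of −0.16.

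CDKN1A encodes p21, which binds cyclin-dependent kinases and halts the cell cycle, and is the textbook arrest target of p53. Its log2 level was 12.08 on the Control, 13.80 on the ATRA and 11.67 on the ATRA+NIC array, so the ATRA array stood above the other 2. Both of its transcripts, on chromosome 6 between 36754464 and 36763087 (hg18), differed alike, by 1.81 and 1.62 for ATRA minus Control and by −2.08 and −2.19 for ATRA+NIC minus ATRA. On the ATRA+NIC array the gene was 0.42 below Control, which both transcripts shared at −0.27 and −0.57.

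The GADD45 genes encode small stress proteins that act on cell cycle kinases, DNA repair and stress-activated kinase signalling. GADD45A, the member of the family best known as a p53 target, had levels of 11.32, 12.69 and 10.42 on Control, ATRA and ATRA+NIC. The 3 transcripts of GADD45A, on chromosome 1 between 67923470 and 67926607, were higher on the ATRA than on the Control array by 1.49, 1.03 and 1.59, and lower on the ATRA+NIC than on the ATRA array by differences of −2.48, −1.80 and −2.53. GADD45A was thus lowest on the ATRA+NIC array, 0.90 below Control, the lowest difference from Control among the 33 genes on that array.

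GADD45B, on chromosome 19 between 2427134 and 2429257, had levels of 8.51, 11.23 and 8.03 on Control, ATRA and ATRA+NIC. Its differences of 2.72 (6.58-fold) for ATRA minus Control and −3.20 (9.20-fold) for ATRA+NIC minus ATRA were the greatest among the 33 genes. The 2 transcripts gave 2.39 and 3.05 in the first comparison and −2.58 and −3.82 in the second, so both were far past 2-fold. GADD45G, whose mean level was below the array median, stood at 7.23, 7.97 and 7.20, under 2-fold in all 3 comparisons. Its transcripts disagreed in size, at 0.18 and 1.29 for ATRA minus Control and −0.48 and −1.05 for ATRA+NIC minus ATRA.

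The polo-like kinases PLK2 and PLK3 take part in stress and checkpoint responses. PLK3, on chromosome 1 between 45038622 and 45044254, had levels of 9.79, 11.61 and 8.97 on Control, ATRA and ATRA+NIC from its single transcript. The differences were 1.83 for ATRA minus Control, −2.64 for ATRA+NIC minus ATRA and −0.82 for ATRA+NIC minus Control, the ATRA array again standing above the others. PLK2, a p53 target, had levels of 12.15, 12.62 and 11.71, with transcripts at 0.60 and 0.32 in the first comparison and at the 2-fold line and −0.81 in the second. The order of the arrays was the same as for PLK3, and the gene stayed under 2-fold.

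BTG1 and BTG2 encode antiproliferative proteins that promote shortening of messenger RNA tails, and BTG2 is a p53 target. BTG1, on chromosome 12 between 91061029 and 91063751, stood at 10.55, 11.92 and 10.74 on Control, ATRA and ATRA+NIC, with transcript differences of 1.26 and 1.48 and then of −1.26 and −1.10. BTG2, on chromosome 1 between 201541286 and 201545353, stood at 9.80, 10.96 and 9.87, with transcript differences of 1.15 and 1.15 and then of −0.97 and −1.20. Both genes were high on the ATRA array alone, and on the ATRA+NIC array they were within 0.19 and 0.07 of Control.

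The G cyclins are named for cyclins but are linked with growth restraint, CCNG1 as a direct p53 target and CCNG2 as a gene of resting cells. CCNG2, on chromosome 4 between 78297401 and 78573564, had levels of 8.46, 9.48 and 8.30, with transcript differences of 1.06 and 0.98 for ATRA minus Control and −1.21 and −1.15 for ATRA+NIC minus ATRA. It lay just past the 2-fold line at 1.02, and an offset of 100 before taking logs brought it to 0.85. CCNG1, the p53 target of the pair, stood at 9.08, 9.22 and 9.17, and its transcripts gave 0.26, 0.11 and 0.04 for ATRA minus Control and −0.02, −0.36 and 0.24 for ATRA+NIC minus ATRA. SFN encodes 14-3-3 sigma, an arrest protein abundant in stratified epithelium, and stood at 15.17, 15.11 and 15.02. The 3 arrays were thus close for both CCNG1 and SFN.

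**Figure D2:**
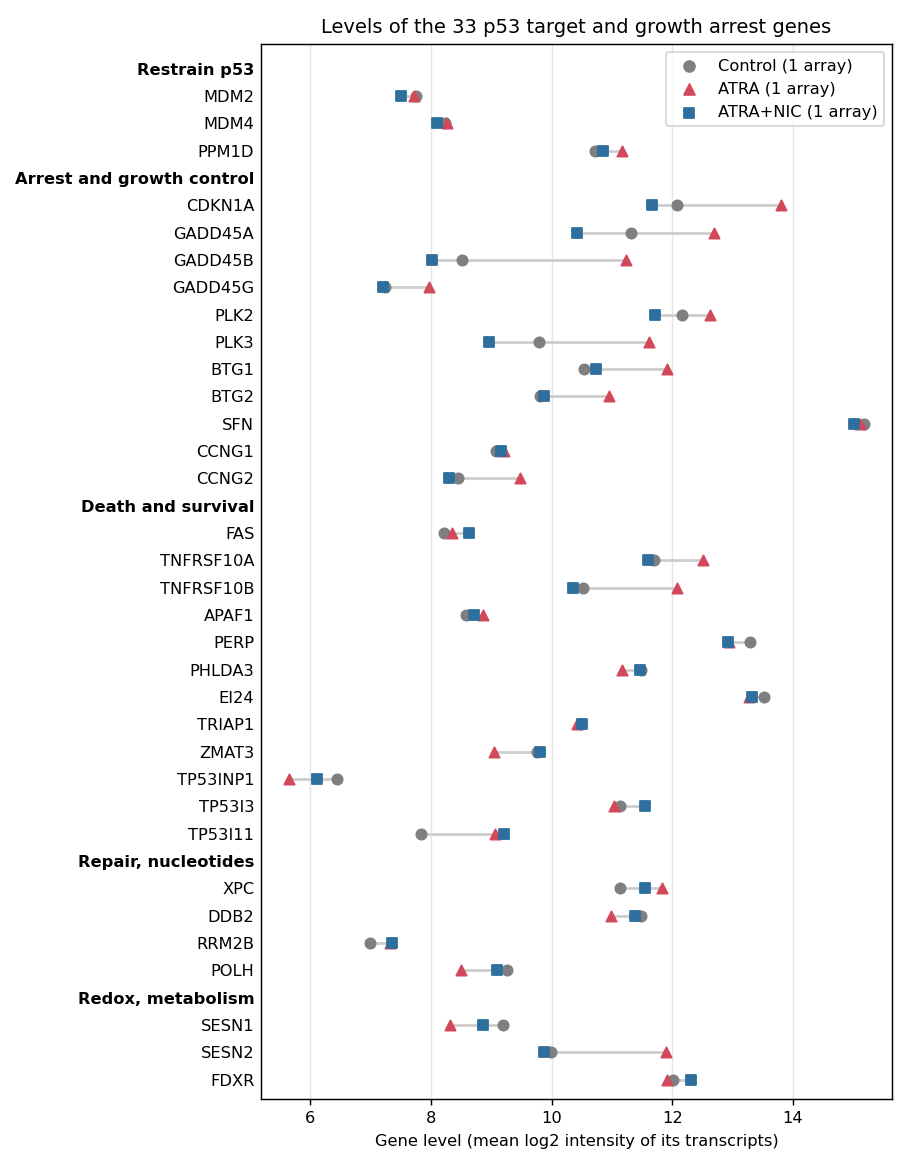
Level of each of the 33 genes (mean log2 intensity of its transcripts) on the Control (grey circles), ATRA (red triangles) and ATRA+NIC (blue squares) array, grouped by role; the grey line joins the lowest and the highest array. Among the arrest genes the red triangle lies right of both other symbols for CDKN1A, the GADD45 genes, PLK2, PLK3, BTG1, BTG2, CCNG1 and CCNG2, while for TP53I11 both treated arrays lie right of Control.

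Sequences upstream of the transcription start were read from RefSeq (assembly GRCh38.p14) to show what lies before the start of the genes highest on the ATRA array. A window held 250 bases before and 50 bases after a start, and 27 of the 33 genes had at least 1, with 40 windows in all. Positions count from the start base as 0. The stretches below are the 100 bases before the start of 7 genes that were at least 2-fold higher on the ATRA array, and capitals mark, on either strand, the TATA box letters TATAAA, the CCAAT box, and the letters of the GC box, GGGCGG.
GADD45B, chr19:2476027-2476126, plus strand: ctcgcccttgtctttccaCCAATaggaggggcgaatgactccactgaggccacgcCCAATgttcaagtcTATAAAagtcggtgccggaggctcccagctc
BTG1, chr12:92145847-92145946, minus strand: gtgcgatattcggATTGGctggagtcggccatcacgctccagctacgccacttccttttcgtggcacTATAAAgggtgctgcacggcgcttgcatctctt
CDKN1A, chr6:36678614-36678713, plus strand: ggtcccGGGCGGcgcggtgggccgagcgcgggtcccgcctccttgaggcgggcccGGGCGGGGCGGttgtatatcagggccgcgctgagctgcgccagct
SESN2, chr1:28259418-28259517, plus strand: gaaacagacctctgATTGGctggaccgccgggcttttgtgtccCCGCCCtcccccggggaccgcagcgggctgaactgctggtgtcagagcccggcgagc
PLK3, chr1:44800277-44800376, plus strand: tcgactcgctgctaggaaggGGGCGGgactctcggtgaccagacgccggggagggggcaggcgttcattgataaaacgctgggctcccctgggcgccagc
BTG2, chr1:203305419-203305518, plus strand: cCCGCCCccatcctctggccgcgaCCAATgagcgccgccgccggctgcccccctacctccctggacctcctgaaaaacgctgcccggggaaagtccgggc
CCNG2, chr4:77157107-77157206, plus strand: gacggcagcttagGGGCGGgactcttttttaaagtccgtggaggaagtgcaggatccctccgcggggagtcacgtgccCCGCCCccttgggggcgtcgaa

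Over whole windows, 8 of the genes that were at least 2-fold higher on the ATRA array had at least 1 window, and 19 of the others did. GGGCGG stood in 7 of the 8 and 15 of the 19, against 45.0% of all 35116 windows in the table, and CCAAT in 5 of the 8 and 10 of the 19, against 34.6%. TATAAA stood in GADD45B, at −31 to −26, and in BTG1, at −33 to −28, against 11.5% of windows. The E-box CACGTG was found in CCNG2, GADD45B and GADD45G (7.26% of windows), and TGATGNAA, the letters bound by composite ATF and C/EBP factors, in PLK3 and GADD45G (3.62%). A match to the NF-kB consensus stood in GADD45B, SESN2, FAS and ZMAT3 (9.08%), and the one in SESN2, at −123 to −114, overlaps a GGGCGG. The AP-1 letters TGANTCA were found in FAS, MDM2, PERP and SFN (7.71%), the cyclic AMP response letters TGACGTCA in PPM1D (1.85%), and the CArG consensus in 0 of the 27 (1.29%). These 11 motifs were picked after the values had been seen, both strands were searched, and genes with several windows have more room for a match. A match describes letters and not binding.

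The p53 half-site consensus, 10 bases of which a full response element holds a pair, was found in windows of 6 of the 27 genes and in 6.63% of all windows. Only exact matches to the consensus were counted. None of the 8 higher genes with a window was among these 6, and the window does not reach the more distant elements known for genes such as CDKN1A. With a match in only 6.63% of all windows, few matches would be found in any 8 genes, so no contrast is drawn from this. GADD45A and TNFRSF10B, also higher on the ATRA array, had no window. The matches, 7 in these 6 genes, are shown in capitals because they belong to genes that did not reach 2-fold.
DDB2, chr11:47214979-47214999, plus strand, from 5 to 25 after the start: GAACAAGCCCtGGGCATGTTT
FAS, chr10:88991289-88991338, plus strand: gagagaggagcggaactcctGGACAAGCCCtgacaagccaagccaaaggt
SESN1, chr6:109009008-109009057, minus strand: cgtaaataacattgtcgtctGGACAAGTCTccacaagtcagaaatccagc
PLK2, chr5:58460189-58460238, minus strand: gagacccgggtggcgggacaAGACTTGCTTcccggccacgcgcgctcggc
EI24, chr11:125569447-125569476, plus strand: ccagcggccccgtgcggcccGGGCATGCCC
FDXR, chr17:74872995-74873025, minus strand: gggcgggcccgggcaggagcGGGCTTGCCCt

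The DDB2 stretch holds 2 half-sites separated by 1 base, a pair (at most 13 bases apart) that occurs in 0.0285% of all windows. The 6 genes with a half-site did not move together on the arrays. DDB2 and SESN1 were lower on the ATRA than on the Control array, at −0.49 and −0.89, PLK2 was higher, at 0.46, and FAS, EI24 and FDXR differed by 0.14, −0.26 and −0.09.

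Among the 12 genes of cell death and its control, 2 were at least 2-fold higher on the ATRA than on the Control array. Over all measured genes this share was 4.23%. By any amount, 5 of the 12 (41.7%) were higher, against 47.7% of all genes, and 7 were lower. The median of the 12 was −0.08, beside −0.03 over all genes. The death receptors differed from one another. TNFRSF10B, which encodes the TRAIL receptor DR5, had levels of 10.53, 12.08 and 10.36 on Control, ATRA and ATRA+NIC. Its 3 transcripts gave 1.76, 1.35 and 1.54 for ATRA minus Control and −1.81, −1.68 and −1.66 for ATRA+NIC minus ATRA, so the ATRA array was high in each. TNFRSF10A, the other TRAIL receptor with a death domain (DR4), stood at 11.69, 12.51 and 11.59 from 1 transcript. Its differences of 0.82 and −0.92 had the same signs as those of TNFRSF10B but were under 2-fold. FAS, the receptor of FAS ligand and a p53 target, stood at 8.22, 8.36 and 8.63 from 1 transcript and was highest on the ATRA+NIC array, 0.41 above Control.

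TP53I11, a p53-inducible gene, was the only one of the 33 that was at least 2-fold higher than Control on both treated arrays. Its levels were 7.84, 9.07 and 9.21 on Control, ATRA and ATRA+NIC, and its transcripts lie on chromosome 11 between 44910479 and 44929010 (hg18). The difference rests mainly on 1 of 2 transcripts, which gave 1.91 for ATRA minus Control and 2.11 for ATRA+NIC minus Control, while the brighter one gave 0.54 and 0.63.

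The remaining death and survival genes were under 2-fold in all 3 comparisons. Those lower on the ATRA array included TP53INP1, a regulator of autophagy and apoptosis, at 6.44, 5.66 and 6.11, and ZMAT3, which encodes an RNA-binding target of p53, at 9.76, 9.04 and 9.80. Both transcripts of each were lower on the ATRA than on the Control array, by differences of −0.75 and −0.82 for TP53INP1 and −0.68 and −0.76 for ZMAT3. TP53INP1 was dim, with a transcript at an intensity of 48.5 on the ATRA array. PHLDA3, which restrains the kinase AKT, stood at 11.48, 11.17 and 11.46, EI24, an endoplasmic reticulum protein gene, at 13.53, 13.26 and 13.32, and PERP, a desmosomal protein gene of epidermis, at 13.29, 12.94 and 12.93. TP53I3, which encodes an oxidoreductase, stood at 11.13, 11.03 and 11.54, and APAF1, the core of the apoptosome, at 8.59, 8.87 and 8.72. TRIAP1, a survival gene, stood at 10.48, 10.42 and 10.50. For these last 6 genes the arrays lay within 0.52 of one another.

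None of the 4 genes of repair and nucleotide supply reached 2-fold. XPC, the sensor of nucleotide excision repair, stood at 11.14, 11.83 and 11.56 on Control, ATRA and ATRA+NIC, and DDB2, which recognises ultraviolet damage, at 11.48, 10.99 and 11.38. The first was highest and the second lowest on the ATRA array, each from 1 transcript. POLH, the polymerase that copies past ultraviolet lesions, stood at 9.26, 8.50 and 9.10, and both transcripts were lower on the ATRA than on the Control array, at −0.85 and −0.68. RRM2B, the p53-inducible subunit of ribonucleotide reductase, stood at 6.99, 7.33 and 7.36, with 5 transcripts between −0.16 and 1.04 for ATRA minus Control, so they did not point one way.

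SESN1 and SESN2 encode sestrins, which restrain mTORC1 signalling and oxidative stress, and these genes moved in opposite directions on the ATRA array. SESN3, a sestrin gene outside the 33, stood at 8.38, 8.65 and 7.91 on Control, ATRA and ATRA+NIC. SESN2, the sestrin known to respond to several kinds of stress, had levels of 9.99, 11.90 and 9.87 on Control, ATRA and ATRA+NIC. Its 2 transcripts, on chromosome 1 between 28458592 and 28481589 (hg18), gave 2.00 and 1.81 for ATRA minus Control and −2.14 and −1.92 for ATRA+NIC minus ATRA. SESN1, the sestrin best known as a p53 target, stood at 9.20, 8.31 and 8.87, and its transcripts gave −1.12 and −0.66 in the first comparison and 0.80 and 0.31 in the second. The ATRA array was therefore the highest for SESN2 and the lowest for SESN1, whose brighter transcript alone passed 2-fold. FDXR, which encodes the mitochondrial ferredoxin reductase and is a p53 target, stood at 12.01, 11.92 and 12.31.

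Transcripts of the same gene gave the only measure of scatter, and it lies within arrays, not between cultures. It does not separate technical scatter from differences between transcript forms. Of 26 genes with more than 1 transcript, 20 had all transcripts on the same side of 0 for ATRA minus Control, and 20 did for ATRA+NIC minus ATRA. Around their gene's mean, the log2 differences of single transcripts had a pooled SD of 0.37 in the first comparison and 0.31 in the second among the 26, beside 0.45 in both over all 11864 genes with more than 1 transcript. Counting only genes with every transcript past 2-fold, a rule added after the data were seen, 8 genes were higher on the ATRA than on the Control array, against 3.41% of all genes, and 0 were lower, against 2.73%. For ATRA+NIC minus ATRA 8 were lower, against 3.28%, and 0 higher, against 2.64%. For ATRA+NIC minus Control 0 were higher, against 2%, and 0 lower, against 1.81%.

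**Figure D3:**
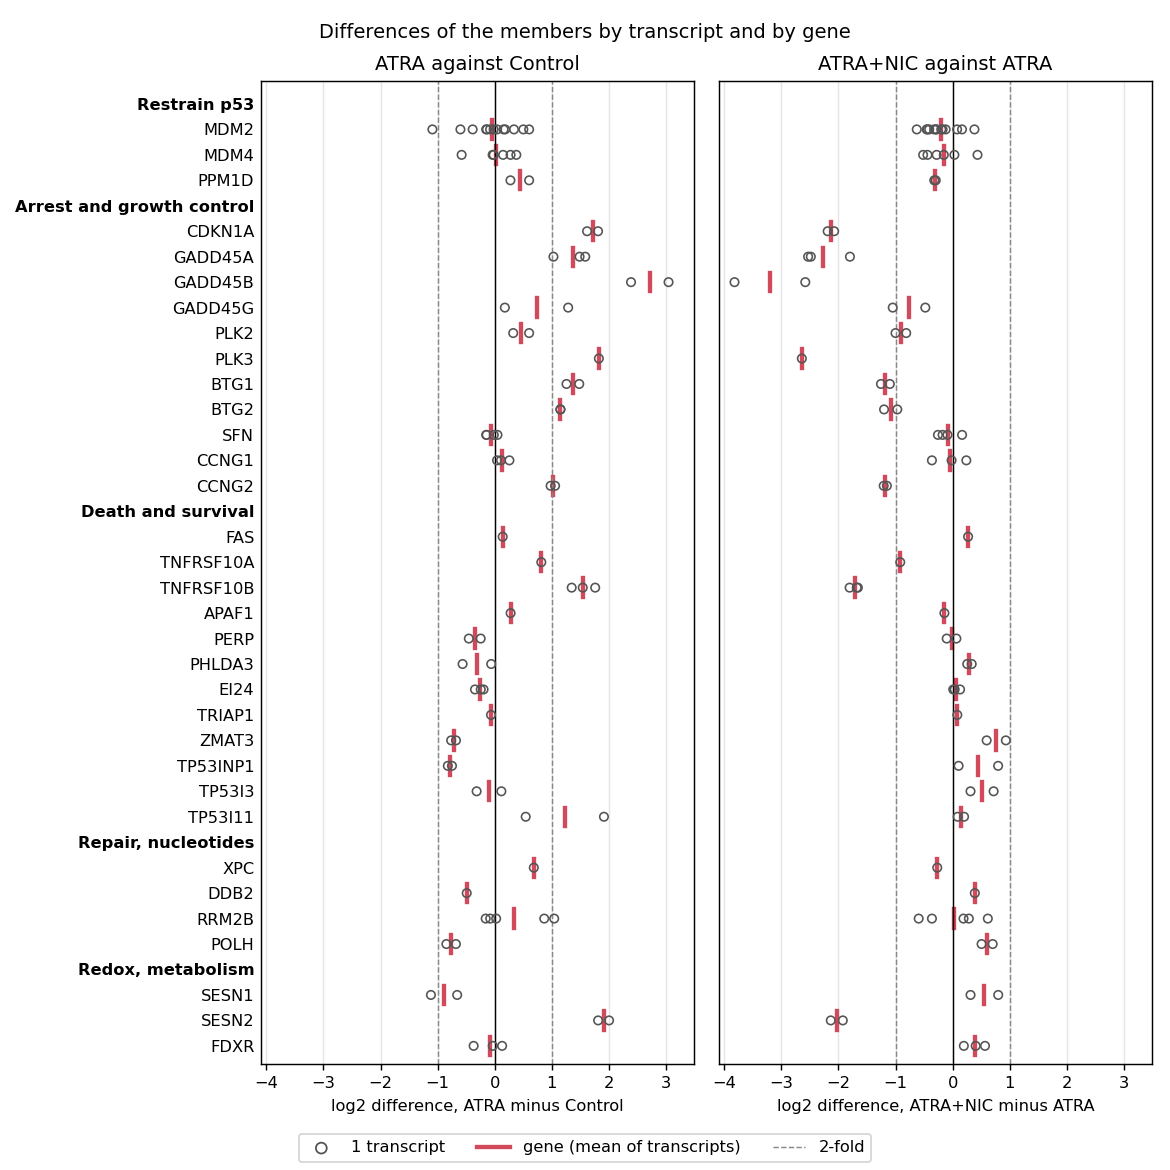
Log2 differences of each transcript (open circles) and of the gene (red bar, mean of its transcripts) for ATRA minus Control (left) and ATRA+NIC minus ATRA (right), for the 33 genes by role, with dashed lines at 2-fold. The transcripts of GADD45B lie at 2.39 and 3.05 on the left and at −2.58 and −3.82 on the right, while the 13 of MDM2 spread on both sides of 0; both panels share the ATRA array.

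Beyond the 33, none of 18 genes of the p53 family and its upstream regulators passed 2-fold for ATRA minus Control. Their median was −0.07 and their range −0.94 to 0.51, the lowest being the p53 relative TP73, at 7.11, 6.16 and 6.72 on Control, ATRA and ATRA+NIC. TP63, the relative that maintains basal keratinocytes, stood at 12.04, 12.53 and 11.10 on Control, ATRA and ATRA+NIC, and its difference of −1.43 for ATRA+NIC minus ATRA was the only one past 2-fold in this list, whose median there was 0.15.

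Of 35 further p53 targets, 8 passed 2-fold for ATRA minus Control, 6 upward and 2 downward, and the median was 0.42. For ATRA+NIC minus ATRA 6 passed downward and 1 upward, and the median was −0.07. The proapoptotic genes BBC3 and PMAIP1, which encode PUMA and NOXA, stood at 8.56, 10.56 and 8.97 and at 10.68, 12.22 and 10.62. ATF3, a stress-response factor gene, stood at 8.55, 11.42 and 8.01, and GDF15, a stress cytokine gene, at 8.75, 13.04 and 9.13. These 4 were high on the ATRA array alone, as CDKN1A and GADD45B were. IGFBP3, which encodes a binding protein of insulin-like growth factors, stood at 12.33, 14.23 and 13.38, and the repressor gene BCL6 at 6.39, 8.55 and 7.70, both higher than Control on the ATRA+NIC array as well. The matrix gene THBS1, at 13.42, 12.34 and 11.31, and the mitotic gene GTSE1, at 10.75, 9.69 and 10.61, were at least 2-fold lower on the ATRA than on the Control array.

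Other growth arrest genes went both ways. Of 17 CDK inhibitors and relatives of the members, 0 were at least 2-fold higher and 1, GAS2, was at least 2-fold lower for ATRA minus Control, with a median of 0.02 and a range of −1.19 to 0.94. The BTG relatives TOB1 (11.34, 12.28 and 11.72) and TOB2 (10.28, 11.07 and 10.46) and the CDK4 and CDK6 inhibitor gene CDKN2B (8.30, 9.20 and 8.72) were highest on the ATRA array, under 2-fold, and were picked out after their values were seen. GAS2 and CDKN1C, the 1 gene past 2-fold for ATRA+NIC minus ATRA, were near the floor. With intensities under 50 set to 50, GAS2 differed by −0.07 for ATRA minus Control and CDKN1C by 0.20 for ATRA+NIC minus ATRA. Of 12 cyclins, CDKs and the replication clamp PCNA, on which p21 acts, 0 passed 2-fold for ATRA minus Control, with a median of −0.14. PCNA stood at 13.27, 12.34 and 13.64, so that ATRA+NIC minus ATRA was 1.30.

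All 14 proliferation markers were lower on the ATRA than on the Control array, where 12338 of all 23595 genes were. The median of the 14 was −0.50, and 1 was past 2-fold, MKI67, which stood at 11.88, 10.75 and 11.77. For ATRA+NIC minus ATRA all 14 were higher, against 54.2% of all genes, and the median of the 14 was 0.48. There 2 were past 2-fold, MKI67 and the survivin gene BIRC5, which stood at 10.88, 9.88 and 10.95. With intensities under 50 set to 50 the difference of BIRC5 was 0.95. Against Control, 6 of the 14 were higher on the ATRA+NIC array, where 50.4% of all genes were, and 8 were lower, with a median of −0.02. None of 16 reference genes, such as ACTB and GAPDH, reached 2-fold in any of the 3 comparisons, and their medians were −0.09, 0.00 and −0.08.

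**Figure D4:**
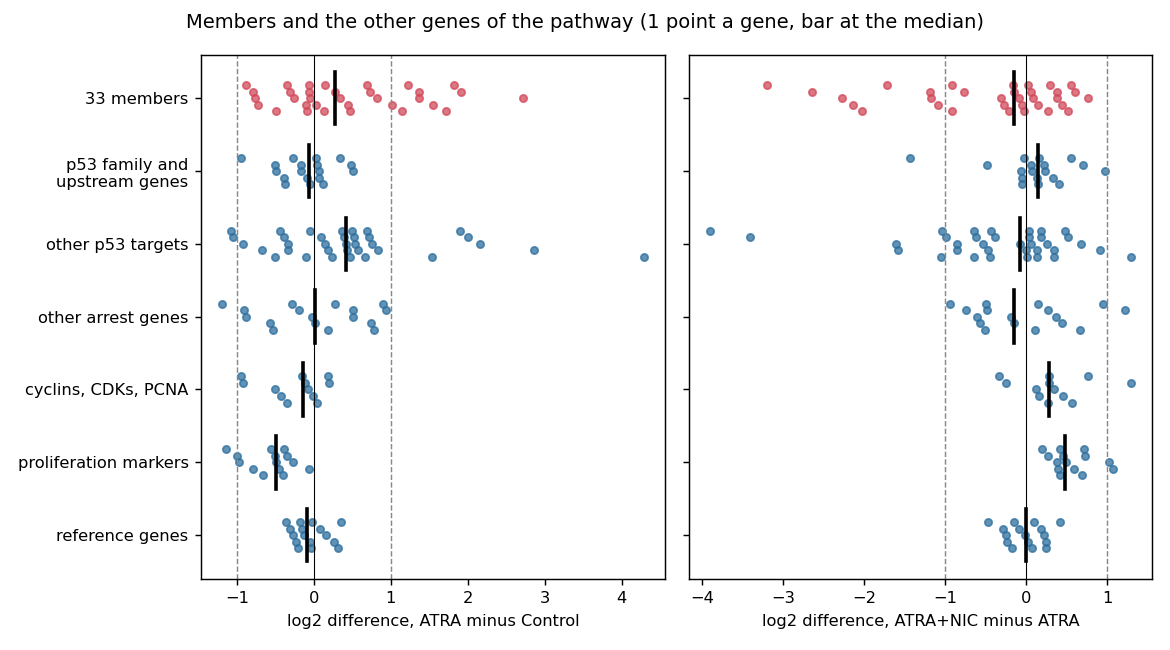
Log2 differences for ATRA minus Control (left) and ATRA+NIC minus ATRA (right) of the 33 genes (red) and of 6 other lists (blue), with 1 point for each gene and a black bar at the median. The medians on the left were 0.28 for the 33 genes, 0.42 for further p53 targets and −0.50 for the proliferation markers; both panels share the ATRA array and the lists were chosen with earlier results of these data known.

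Markers of keratinocytes had 0 of 12 under an intensity of 50 on any array. Their summed intensity was 114534 on the Control, 89115 on the ATRA and 70563 on the ATRA+NIC array. For ATRA+NIC minus Control 9 of the 12 were lower, where 11696 of all 23595 genes were, with a median of −0.66 for the 12. Among them KRT5 was lower than Control on both treated arrays (14.86, 13.29 and 13.29), KRT17 was highest on the ATRA array (7.62, 8.63 and 7.97), and DSG3 differed by −1.35 for ATRA+NIC minus ATRA. Markers of leukocytes moved with the ATRA array as the arrest genes did. Their summed intensity was 2858 on the Control, 5364 on the ATRA and 3226 on the ATRA+NIC array. Of the 14, 12 were higher on the ATRA than on the Control array, against 47.7% of all genes. On Control, ATRA and ATRA+NIC, 6, 3 and 8 of the 14 lay under 50. The macrophage gene CD68 made up most of that sum, with intensities of 1774, 3399 and 2339. Those past 2-fold for ATRA minus Control were PTPRC (5.07, 7.24 and 4.21), CD3D (4.40, 5.73 and 4.18) and CD79A (6.90, 8.25 and 6.79), and MS4A1 and CD8A were among those under 50 on all 3 arrays. With intensities under 50 set to 50, the ATRA minus Control difference was 1.54 for PTPRC and 0.46 for CD3D. For ATRA+NIC minus ATRA 6 of the 14 were at least 2-fold lower, namely PTPRC, CD3D, CD3E, CD3G, CD79A and NKG7. With the same floor CD3D came to −0.46 and CD3G to −0.40 there, and the other 4 stayed past 2-fold. The endothelial cadherin gene CDH5 was higher on both treated arrays (7.70, 11.31 and 11.67), while PECAM1, KDR, TEK, TIE1 and EMCN were under 50 on all 3. CLDN5, in the same list, was also higher than Control on both, by 1.41 and 1.09, and under 50 on the Control array alone. With intensities under 50 set to 50 its difference from Control was 0.68 for ATRA and 0.36 for ATRA+NIC. Fibroblast markers summed to 2560, 2633 and 2851, and melanocyte markers to 452.4, 557.3 and 704.2. MLANA, the 1 melanocyte marker past 2-fold for ATRA+NIC minus ATRA, stood at 4.36, 4.79 and 5.79, and its difference was 0.73 with the floor. The part of other cells, and of fewer dividing cells, in the differences of the 33 genes was not tested.

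The arrays themselves were alike. The median intensity was 297.9 to 302.3, the random probes that match no human transcript lay at 18.4 to 19.6, and 73.6% to 73.8% of transcripts reached 50 on each. The number of arrays limits the precision of everything above.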

How the data were processed

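Intensities of 45033 transcripts per array, on a linear scale and summarised over 3 probes (fewer for 2 transcripts), were deposited by the authors and are RMA calls per the file headers. No label or header names the software. The intensities were used as log2 values without further scaling. The 42947 transcripts with a gene name were averaged to 23595 gene symbols; of 23619 gene numbers, 20230 matched a current RefSeq symbol, and 1 of the 33 genes (ZMAT3) stood under an earlier one. A difference was called at 2-fold, with no filter on level and no p-value. Coordinates of transcripts are on hg18, and those of promoter sequences on GRCh38.p14. The 33 genes and all lists were chosen with earlier results of these data known. All 33 are named; of other lists, genes at least 2-fold apart in a comparison with the ATRA array are, up to 8 a list, with TP63, and some genes of these lists are not reported here. GTSE1, TP73, TOB1, TOB2, CDKN2B, CD68 and SESN3 were named outside the rule, after their values were seen. The counting rule was tried on simulated data with equal noise for every gene and shifts well past 2-fold. That trial does not show the error of the rule on these arrays. Alternatives were 9 other settings and 1 added after the data were seen. Python 3.11.15, pandas 2.3.3 and NumPy 2.4.6 were used.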

Additional observations from a re-analysis of the deposited data

How the results depend on the processing

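The counts of genes at least 2-fold higher on the ATRA than on the Control array, and lower on the ATRA+NIC than on the ATRA array, stayed within 1.5 times the reported 10 and 9 under every alternative run. No called value reversed. With the brightest transcript of each gene in place of the mean, 1 gene (SESN1) was at least 2-fold lower on the ATRA than on the Control array instead of 0, and 0 instead of 1 were higher on the ATRA+NIC than on the Control array. That last count was also 0 when every transcript had to pass, an alternative chosen after seeing the data. At 1.5-fold, 4 genes (12.1%, against 11.4% of all genes) were lower for ATRA minus Control, 2 (6.06%, against 11.3%) were higher for ATRA+NIC minus ATRA and 2 (6.06%, against 7.4%) were lower for ATRA+NIC minus Control, all in place of 0. TP53I11 and CCNG2 fell under 2-fold in a setting. TP53I11 came to 0.54 (brightest transcript) and 0.90 (offset of 100) for ATRA minus Control and to 0.63 (brightest transcript) for ATRA+NIC minus Control. CCNG2 came to 0.85 and −0.97 with the offset. The cause was not tested. No paired analysis was possible because each group holds 1 array and the labels carry no replicate number. MDM2, GADD45G, TP53INP1 and RRM2B lie below the median level, where genes scatter more. Of these, TP53INP1 and RRM2B each had 1 transcript under an intensity of 50 on an array, and MDM2 and GADD45G had 0. MDM4, whose mean level was above the median, also had 1.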
